A study of Homo sapiens with 2 samples.

Results

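Lipocalin-2 and Progranulin are 2 of the 507 antibodies on glass arrays that were incubated with conditioned medium of human pancreatic cancer cells. They were chosen by name, and the names were selected on the signal itself, as both stood out on the array labelled siJAG1. The array labelled siJAG1 stands for Su.86.86 cells given a small interfering RNA against JAG1, and the array labelled siNC for the same line given siNC, the label's name for the control. Su.86.86 is an established pancreatic carcinoma line, kept per the labels in DMEM with 10% fetal bovine serum, penicillin and streptomycin. By these labels, the medium of both cultures held serum. Medium was taken 48 h after transfection and 100 µL of it stayed on the array for 2 h; Cy3 on streptavidin made the captured protein visible. Each label has 1 array, so no test, SD or p-value between the labels is possible, and all differences below describe these arrays.

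Lipocalin-2, also named NGAL, is a small secreted protein that binds bacterial siderophores and so withholds iron from microbes. It was first known from neutrophil granules, is made by many inflamed or transformed epithelia, pancreatic carcinoma among them, and can form a complex with the gelatinase MMP-9. Progranulin is a secreted glycoprotein built of granulin domains, which acts on cell growth and inflammation, is taken up into lysosomes through sortilin, and can be cut into granulins by neutrophil elastase and other proteases. The secreted inhibitor SLPI protects it from elastase. The genes are LCN2 on chromosome 9 (128149453 to 128153453) and GRN on chromosome 17 (44345302 to 44353106), by the GRCh38.p14 annotation of RefSeq.

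The stretch of 250 bases before each gene's start, from RefSeq's GRCh38.p14 and on the plus strand, is shown because both proteins were bright on the same array. LCN2 lies at chr9:128149203-128149452 and GRN at chr17:44345052-44345301, and capitals mark matches on either strand to the NF-kB consensus and to the CCAAT box. The TATA box (TATAAA) was searched for as well, also on both strands.
LCN2: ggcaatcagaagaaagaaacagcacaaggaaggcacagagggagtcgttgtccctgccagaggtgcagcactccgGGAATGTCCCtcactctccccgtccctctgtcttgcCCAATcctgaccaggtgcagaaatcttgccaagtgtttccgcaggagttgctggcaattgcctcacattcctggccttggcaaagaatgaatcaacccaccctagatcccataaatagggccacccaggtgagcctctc
GRN: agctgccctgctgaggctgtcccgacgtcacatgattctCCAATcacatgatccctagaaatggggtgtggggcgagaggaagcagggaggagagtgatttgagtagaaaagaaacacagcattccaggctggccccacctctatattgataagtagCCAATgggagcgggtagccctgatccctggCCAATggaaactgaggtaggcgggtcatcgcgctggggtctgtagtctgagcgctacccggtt
The LCN2 stretch held 1 match to the NF-kB consensus, beginning 175 bases before the start, and the GRN stretch held 0. Of 35116 stretches of this length, 9.96% held such a match. CCAAT matched 1 time before LCN2 and 3 times before GRN, and 32.0% of the stretches held it. TATAAA matched neither and was present in 10.7%. The motifs searched do not overlap in these stretches, and a match describes letters only.

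The labels of the arrays need a caution before any value. A single-spot sheet deposited alike with both samples has 4 columns. Their headings are BX3mir-124 and BX3_NC for one pair and Panc1_mir-124 and Panc1_NC for the other, and they name neither JAG1 nor Su.86.86. For all 507 antibodies the signal labelled siJAG1 equalled the mean of a spot pair under BX3_NC, and the signal labelled siNC that under Panc1_NC (tolerance 1e-06). Panc1 is the name of another pancreatic carcinoma line, and NC ends both headings. The columns were assigned to no sample, their values are given by heading, and the directions below rest on the deposited labels. The array carries 0 antibodies to Jagged 1, the protein that JAG1 encodes, so the knockdown cannot be checked on it.

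Both proteins were bright on the siJAG1-labelled array and near the level of the typical antibody on the siNC-labelled array. Lipocalin-2 had a signal of 57788 on the siJAG1-labelled array, against 35091 on the siNC-labelled array. Progranulin had a signal of 51489 on the siJAG1-labelled array, against 35208 on the siNC-labelled array. The unit of the signal is not given. For scale, the median antibody read 34392 on the siJAG1-labelled and 34827 on the siNC-labelled array, and the positive control spots averaged 58664 on the siJAG1-labelled and 57374 on the siNC-labelled array. The Lipocalin-2 signal thus came to 98.5% of the positive mean on the siJAG1-labelled array and 61.2% on the siNC-labelled array, and that of Progranulin to 87.8% on the siJAG1-labelled and 61.4% on the siNC-labelled array. A medium sample cannot tell more cells from more protein released per cell. Whether readings so close to the positive controls still rise in proportion to protein was not tested.

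The authors also deposited a relative expression, in which the lowest spot of the array is 0 and the positive mean is 1. Recomputed that way from the spots, it matched the deposited values for all 507 antibodies on each array. Lipocalin-2 had a relative expression of 0.965 on the siJAG1-labelled array and 0.0620 on the siNC-labelled array. It ranked 1 of 507 on the siJAG1-labelled array, above the annexin A2 partner S100A10 at 0.875, and 164 on the siNC-labelled array, between Erythropoietin and MIP-3 alpha at 0.0621 and 0.0618. Progranulin had a relative expression of 0.713 on the siJAG1-labelled array and 0.0669 on the siNC-labelled array. It ranked 6 on the siJAG1-labelled array, between Glypican 3 at 0.743 and Thrombospondin-1 at 0.694, and 133 on the siNC-labelled array, between IGF-I SR at 0.0673 and IL-9 at 0.0663. The median antibody was at 0.0299 on the siJAG1-labelled and 0.0509 on the siNC-labelled array.

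**Figure D1:**
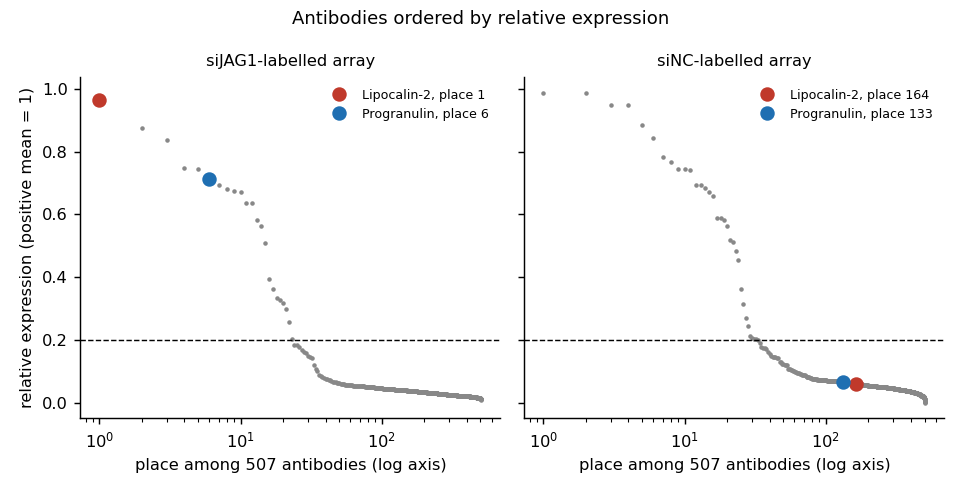
All 507 antibodies in order of relative expression (y axis, positive mean = 1) against their place (x axis, log scale) on the siJAG1-labelled and siNC-labelled arrays, with a dashed line at 0.2. Lipocalin-2 and Progranulin hold places 1 and 6 on the siJAG1-labelled array and places 164 and 133 on the siNC-labelled array, within the flat tail.

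Because values in the flat tail depend on the baseline, folds are given against a floor of 0.2 as bounds. On the siJAG1-labelled array, Lipocalin-2 was at least 4.82-fold and Progranulin at least 3.57-fold higher (log2 ratios of 2.27 and 1.83). With the deposited ratios taken as they stand, the log2 ratios were 3.96 and 3.41. With no baseline subtracted, the signal of Lipocalin-2 was 1.65-fold that of the siNC-labelled array (log2 0.72), and that of Progranulin 1.46-fold (log2 0.55), which misses a limit of 1.5-fold. The 2 antibodies held places 1 and 2 of 507 in both the floored and the plain signal ratio. Of 39 antibodies at or above 0.2 on at least 1 array, 7 (17.9%) were higher by 1.5-fold or more on the siJAG1-labelled array and 15 lower; the 2 proteins were chosen on this contrast, so the share is background only. Under other scalings the higher and lower antibodies numbered 20 and 8 (array medians set equal), 13 and 10 (array totals set equal) and 11 and 11 (quantile normalization). Equal medians add 0.77 to every log2 ratio, and equal totals 0.58. Among the higher antibodies, the last inside the limit was Activin B, a TGF-beta family ligand, at 1.58-fold, and the next, outside it, was TGF-beta 5 at 1.43-fold.

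Each antibody was printed as a pair of spots, which shows the scatter within a slide and not that between cultures. Under the heading BX3_NC, whose means are the siJAG1-labelled values, the Lipocalin-2 spots read 57686 and 57890 and those of Progranulin 52220 and 50758. Under Panc1_NC, whose means are the siNC-labelled values, the Lipocalin-2 spots read 35126 and 35056 and those of Progranulin 34848 and 35568. The spots of the 2 proteins did not overlap between these headings, which follows from their choice on this contrast. A dim antibody can do the same: the 6Ckine spots read 35283 and 35699 under BX3_NC, and 36633 and 36880 under Panc1_NC. The share of all antibodies without overlap was not counted. The pairs of Lipocalin-2 differed by 204 under BX3_NC and 70 under Panc1_NC, against a gap of 22697 between the labelled arrays. The pairs of Progranulin differed by 1462 under BX3_NC and 720 under Panc1_NC, against a gap of 16281. Among the 23 antibodies at or above 0.2 under BX3_NC the median pair difference was 954, so the Lipocalin-2 pair was tighter and the Progranulin pair looser than the typical bright pair. The loosest pair under BX3_NC was Activin B, whose spots read 48198 and 34937 and differed by 13261. The lower spot lies below 38648, the reading at the floor of 0.2 in that column. The call of Activin B, 1 of the 7 higher antibodies, therefore rests on 1 spot. Among the 474 dim antibodies under Panc1_NC the median pair difference was 147, and 91.1% of all pairs in that column were tighter than that of Progranulin.

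**Figure D2:**
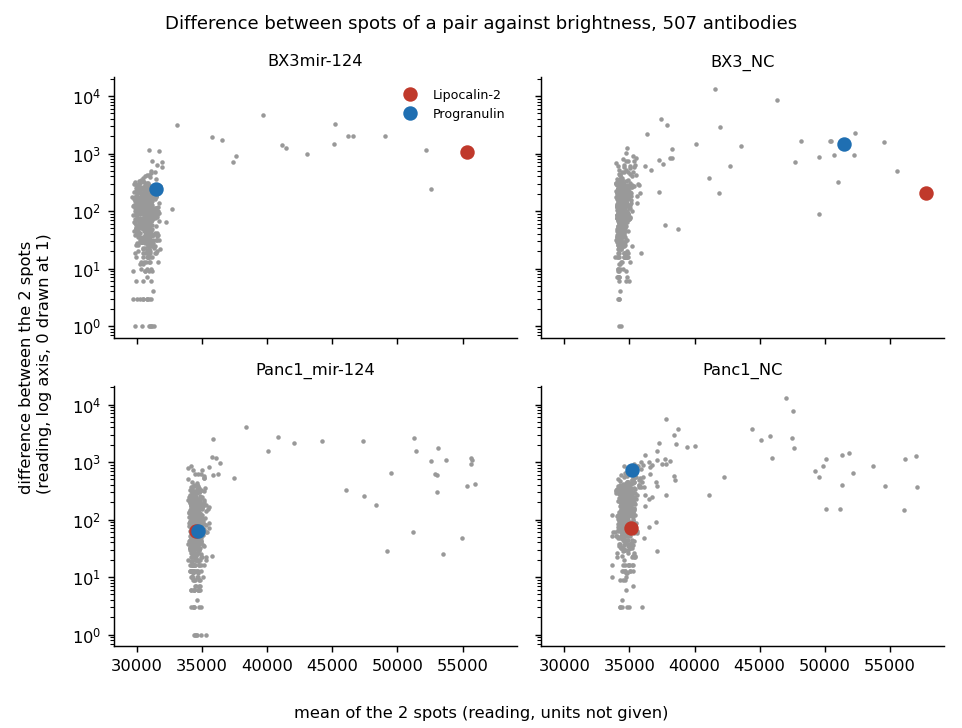
Difference between the spots of a pair (y axis, log scale) against their mean reading (x axis) for 507 antibodies in each of 4 columns of the single-spot sheet. The Lipocalin-2 pair lies low for its brightness under BX3_NC, with a difference of 204, and the Progranulin pair at 1462 among other bright pairs.

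The 4 columns separated the 2 proteins. Under BX3mir-124 the Lipocalin-2 spots read 55848 and 54805, and those of Progranulin 31587 and 31347. Under Panc1_mir-124 the Lipocalin-2 spots read 34569 and 34505, and those of Progranulin 34684 and 34748. Lipocalin-2 was thus bright under both headings with BX3 and dim under both with Panc1, while Progranulin was bright under BX3_NC alone. On the scale of the authors, computed here for each column from its lowest spot and its 12 positive spots, Lipocalin-2 stood at 0.897 under BX3mir-124, 0.965 under BX3_NC, 0.0403 under Panc1_mir-124 and 0.0620 under Panc1_NC. Progranulin stood at 0.0666 under BX3mir-124, 0.713 under BX3_NC, 0.0474 under Panc1_mir-124 and 0.0669 under Panc1_NC. What the headings mean, and which cells or treatments they stand for, is not stated in the sources used here.

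**Figure D3:**
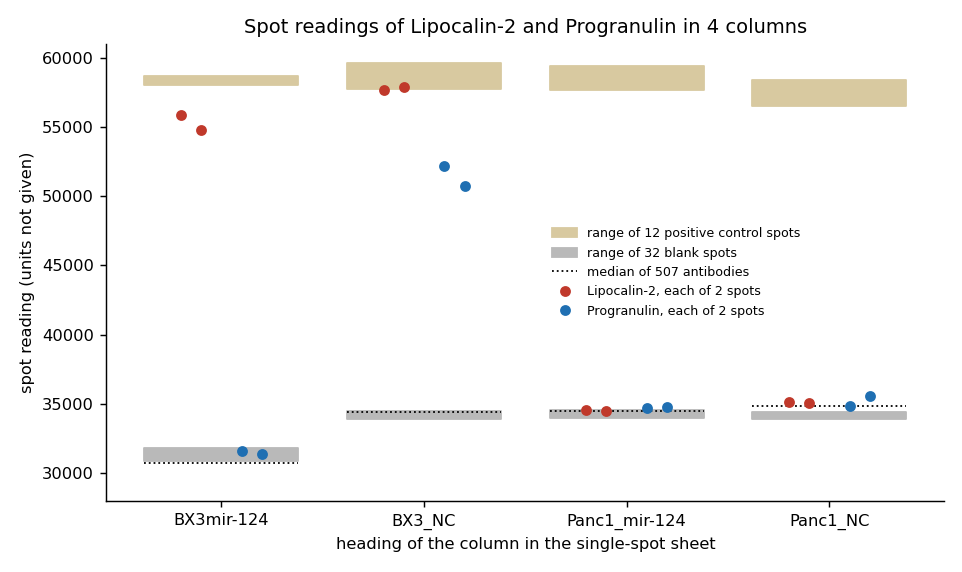
Spot readings (y axis, units not given) of Lipocalin-2 and Progranulin under the 4 headings of the single-spot sheet, 2 spots each, beside the range of 32 blank spots, the range of 12 positive control spots and the median of 507 antibodies. Lipocalin-2 lies near the positive controls under both BX3 headings, and Progranulin is bright under BX3_NC alone.

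Lipocalin-2 ranked 1 of 507 under BX3mir-124 as under BX3_NC. Its relative expression was 1.08-fold lower under BX3mir-124 than under BX3_NC, a difference in mean reading of -2461.5 beside pair differences of 1043 and 204, and below the limit of 1.5-fold (log2 ratio of plain readings -0.06). Progranulin was at least 3.57-fold lower under BX3mir-124 than under BX3_NC, with a difference in mean reading of -20022 beside pair differences of 240 and 1462 (log2 ratio of plain readings -0.71). Of 27 antibodies at or above 0.2 in at least 1 of these columns, 10 (37%) were at least 1.5-fold lower under BX3mir-124 and 1 higher, so a lower value was common there. Csk, a tyrosine kinase that restrains Src family kinases, had the largest bound at 3.73-fold and Progranulin the next. These columns also differed in level: the 32 blank spots averaged 31271 under BX3mir-124 and 34178 under BX3_NC, and 16 antibodies reached 0.2 under BX3mir-124 and 23 under BX3_NC. The part of that shift in the values of the 2 proteins was not tested. Above the blank mean, Lipocalin-2 read 24055 under BX3mir-124 and 23610 under BX3_NC, so the sign of its difference depended on the scale. Progranulin read 196 above the blank mean under BX3mir-124, within the blank SD of 235, although it still ranked 45 of 507 there because the median antibody lay at -547 relative to the blank mean. The comparison shares the BX3_NC readings with that of the labelled arrays, so they are not independent of each other.

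Between the Panc1 headings there was little to compare. Both proteins stayed below 0.2 in both columns, so no fold is given. Lipocalin-2 ranked 217 under Panc1_mir-124 and 164 under Panc1_NC, and Progranulin 140 under Panc1_mir-124 and 133 under Panc1_NC. Above the blank mean, Lipocalin-2 read 235 under Panc1_mir-124 and 903 under Panc1_NC, and the median antibody 157 under Panc1_mir-124 and 639 under Panc1_NC. Progranulin read 414 under Panc1_mir-124 and 1020 under Panc1_NC. The blank SD was 135 under Panc1_mir-124 and 146 under Panc1_NC. Both proteins and the median antibody lay above the blank mean by more than that SD in both columns. Both proteins thus stood near the level of the typical antibody there, which was not that of the blanks. On plain readings the log2 ratio of Panc1_mir-124 over Panc1_NC was -0.02 for each of them.

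Under the headings where the 2 proteins were bright, the places around them on the slide did not share their brightness. Lipocalin-2 was printed in rows 23 and 24 of column 18, and Progranulin in rows 29 and 30 of column 8. Under BX3_NC the 8 antibodies adjoining Lipocalin-2 had relative expression from 0.0285 to 0.101, the highest being the leukocyte adhesion receptor L-Selectin. L-Selectin, printed directly beside it, read 36178 there, and 30944 under BX3mir-124, where Lipocalin-2 was also bright and the neighbours ranged from 0.0413 to 0.0566. The 8 antibodies adjoining Progranulin ranged from 0.0146 to 0.0505 under BX3_NC, the highest being the matrix protein SPARC. Under Panc1_NC, where Progranulin was dim at 0.0669, SPARC stood above it at 0.146. Spread of signal between adjoining places was not tested. With the median of the neighbours as local background, the log2 ratios between the labelled arrays were 2.27 and 1.82.

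**Figure D4:**
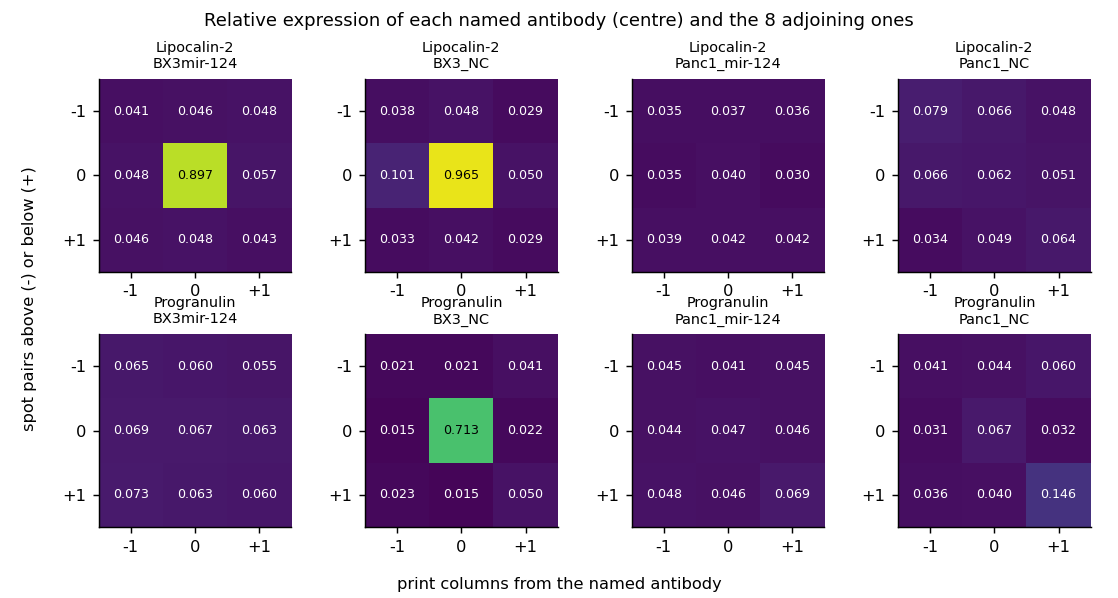
Relative expression (colour and printed value, positive mean = 1) of Lipocalin-2 (top) and Progranulin (bottom) at the centre of the 8 adjoining antibodies, under the 4 headings of the single-spot sheet. The centre is bright for Lipocalin-2 under both BX3 headings and for Progranulin under BX3_NC, and the highest neighbour of Lipocalin-2 is at 0.101.

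Other antibodies with a similar course were found by Euclidean distance in relative expression. Over the 2 labelled arrays, the nearest antibody to each of the 2 proteins was the other, at a distance of 0.252. The 2 proteins were chosen on the values of these arrays, so their closeness here follows from the choice. Csk was next to both, at 0.373 from Lipocalin-2 and 0.299 from Progranulin. Csk stood at 0.746 on the siJAG1-labelled array and 0.364 on the siNC-labelled array. Over the 4 columns the 2 proteins lay 0.867 apart. There the antibodies nearest to Progranulin were the coagulation inhibitor TFPI at 0.353, the adhesion molecule ALCAM at 0.386 and the receptor RANK at 0.386. All 3 were at or above 0.2 under BX3_NC alone, at 0.361, 0.333 and 0.329. For Lipocalin-2 no close match existed over the 4 columns: the adhesion molecule ICAM-2 at 0.867, Progranulin at 0.867 and the pro-apoptotic protein BIK at 0.888 were nearest, and ICAM-2 and BIK were bright in every column. Lipocalin-2 was the 1 antibody of 507 at or above 0.2 under both BX3 headings and under neither Panc1 heading. Progranulin was 1 of 5 that reached 0.2 under BX3_NC alone. Another of these 5, Activin B, did so through 1 of its 2 spots. The 2 proteins were chosen on the values under BX3_NC and Panc1_NC, so these patterns are partly set by the choice. Of the 507 antibodies, 461 reached 0.2 under no heading. Distances over 2 or 4 columns of shared slides are a description only.

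Known partners of the 2 proteins were dim on both labelled arrays, as most antibodies were: 39 of 507 (7.69%) reached 0.2 on at least 1 of them. Lipocalin-1, the tear lipocalin, stood at 0.0257 on the siJAG1-labelled and 0.0337 on the siNC-labelled array. MMP-9, which Lipocalin-2 can bind, stood at 0.0266 on the siJAG1-labelled and 0.0336 on the siNC-labelled array. In the list of Lipocalin-2 partners and relatives, 0 of 4 other antibodies reached 0.2, too few to set apart from that share. Of 10 antibodies to cytokines known to induce Lipocalin-2, or to their receptors, 9 stayed below 0.2 on both arrays and could not be called. The 1 that could was interleukin-1 alpha, an epithelial alarm cytokine, which was lower, at 0.0374 on the siJAG1-labelled array and 0.745 on the siNC-labelled array. A lower value was common: of the 39 antibodies that could be called, 15 were lower and 7 higher. This 1 call therefore says little about the inducers as a list. The remaining inducers were dim: on the siJAG1-labelled array interleukin-1 beta stood at 0.0378, IL-17 at 0.0237, IL-22 at 0.0258 and IL-6 at 0.0188. On the siNC-labelled array interleukin-1 beta stood at 0.0638, IL-17 at 0.0599, IL-22 at 0.0313 and IL-6 at 0.0696.

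Among 7 antibodies to receptors, proteases and inhibitors tied to Progranulin, 0 reached 0.2 on either labelled array, beside the 7.69% of all antibodies. The TNF receptors stood at 0.0258 (TNF RI) and 0.0299 (TNF RII) on the siJAG1-labelled array, and at 0.0659 and 0.0883 on the siNC-labelled array. MMP-14, a membrane protease that can cleave Progranulin, stood at 0.0191 on the siJAG1-labelled and 0.0627 on the siNC-labelled array. MMP-12, the macrophage elastase, stood at 0.0422 on the siJAG1-labelled and 0.0493 on the siNC-labelled array. The protector SLPI stood at 0.0590 on the siJAG1-labelled and 0.0468 on the siNC-labelled array. Under BX3mir-124, SLPI stood at 0.243, against 0.0590 under BX3_NC. With the floor of 0.2 its log2 ratio was 0.28, which is below the limit of 1.5-fold, so SLPI was not called. The median log2 ratio of plain signals was -0.01 for the Lipocalin-2 partners, -0.02 for its inducers and -0.03 for the Progranulin list, beside -0.02 for all 507 antibodies.

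**Figure D5:**
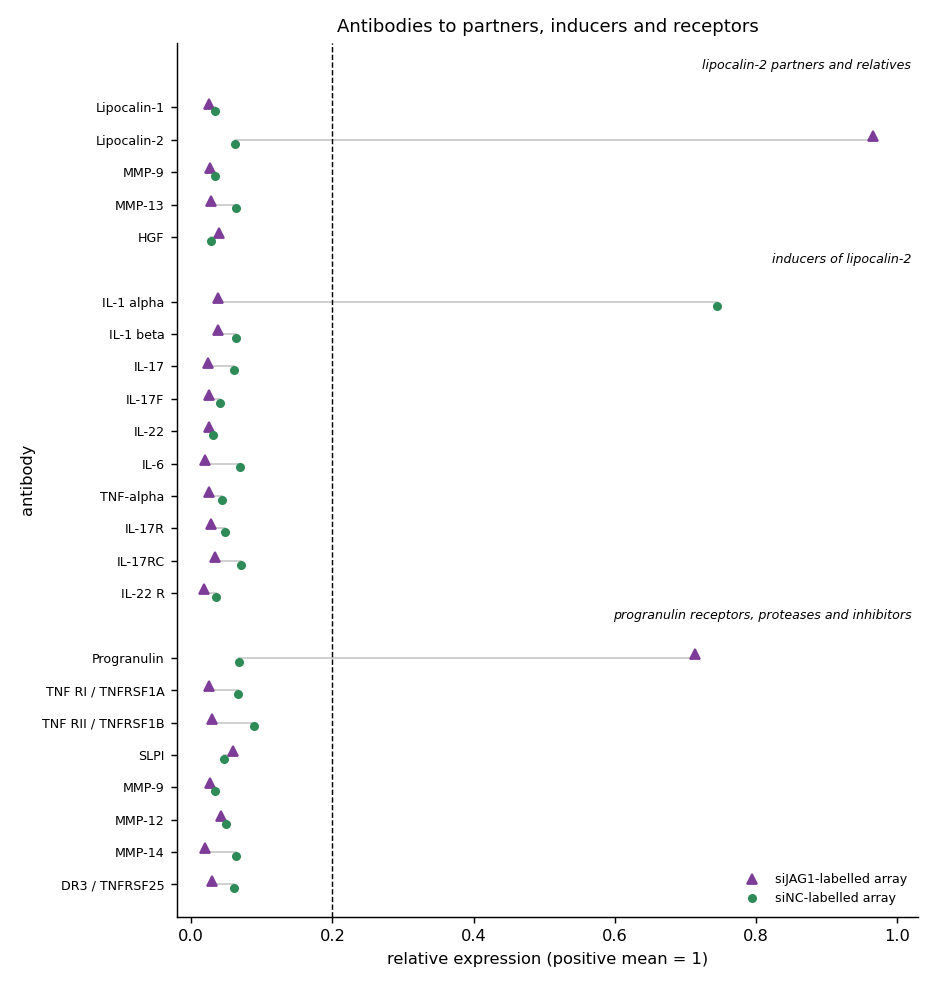
Relative expression (x axis, positive mean = 1) of antibodies to partners and inducers of Lipocalin-2 and to receptors, proteases and inhibitors of Progranulin, with triangles for the siJAG1-labelled and circles for the siNC-labelled array and a dashed line at 0.2. Besides Lipocalin-2 and Progranulin, interleukin-1 alpha alone passes 0.2, on the siNC-labelled array.

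Antibodies that mark other sources of these proteins were read beside them. Of 6 neutrophil granule and myeloid antibodies 0 reached 0.2, beside 7.69% of all antibodies. Their summed relative expression was 0.183 on the siJAG1-labelled and 0.318 on the siNC-labelled array, with list medians of 0.0292 and 0.0542 beside medians of all antibodies of 0.0299 and 0.0509, so the sums stand near the level of each array. S100 A8/A9, abundant in neutrophils, stood at 0.0493 on the siJAG1-labelled and 0.0707 on the siNC-labelled array. MMP-8, neutrophil collagenase, stood at 0.0275 on the siJAG1-labelled and 0.0377 on the siNC-labelled array. Summed over the siJAG1-labelled array, the 9 leukocyte surface antibodies came to 0.394 and the 9 endothelial ones to 0.238, against 0.506 and 0.351 on the siNC-labelled array, with 0 at or above 0.2. Of 8 antibodies to epithelial carcinoma markers, ALCAM reached 0.2, at 0.333 on the siJAG1-labelled and 0.0408 on the siNC-labelled array, while EGF R stood at 0.0546 on the siJAG1-labelled and 0.0706 on the siNC-labelled array. The other 7 of these markers, many of them membrane proteins, stayed below 0.2 on both arrays, so they say little for or against the labelled cell type. Of 3 serum proteins that the bovine serum could bring, Thrombospondin-1 stood at 0.694 on the siJAG1-labelled and 0.740 on the siNC-labelled array, and Endostatin at 0.674 on the siJAG1-labelled and 0.513 on the siNC-labelled array, both within 1.5-fold. The third, Adiponectin, stood at 0.0302 on the siJAG1-labelled and 0.0456 on the siNC-labelled array. Whether these 3 antibodies bind bovine protein was not tested. Under BX3mir-124 Thrombospondin-1 stood at 0.0490, against 0.694 under BX3_NC. Of 7 stromal antibodies, Thrombospondin-1 was the 1 above 0.2.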

How the data were processed

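The members and the lists of partners and markers were chosen with earlier results of these data known. Per the file headers, the deposited sheets give 1 signal intensity and 1 relative expression per antibody and array; the relative expression is a ratio that the authors scaled to the positive controls. The values show a subtraction of the lowest spot, and the negative mean listed in each sheet equals the mean of the 32 spots named Blank. The sources used here do not give the scanner, its software or any background correction. The number of arrays, 1 per label, limits the precision. The 4 columns of single spots, whose readings the authors headed as original values, belong to no sample by their labels and are given only by heading.

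Ratios were taken as the siJAG1-labelled over the siNC-labelled array with values under 0.2 raised to 0.2; a difference counted from 1.5-fold, for antibodies at or above 0.2 on at least 1 array. Named besides the 2 proteins were adjoining places, neighbours in rank, the 3 nearest antibodies by Euclidean distance, list members and values next to the limit; other list members and Csk in the BX3 columns were named after their values were seen. Names were matched ignoring case, spaces and hyphens. Python 3.11.15, numpy 2.4.6, pandas 2.3.3 and matplotlib 3.10.9 were used, and the calculation was tested on simulated data. Upstream sequences came from RefSeq tables, in which 2 of the 2 genes matched by symbol.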

Additional observations from a re-analysis of the deposited data

Results flagged for a closer look

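Signal was seen in data outside the labelled arrays. Lipocalin-2 had a relative expression of 0.897 in the column headed BX3mir-124, which belongs to no sample of the series, against a highest blank spot of 31808 and Lipocalin-2 spots of 55848 and 54805. The 16 spots named neg in the single-spot sheet were far brighter than the blanks, with a median of 34510 under BX3mir-124, 44763 under BX3_NC, 41601 under Panc1_mir-124 and 42729 under Panc1_NC. The highest blank spots read 31808, 34492, 34588 and 34396 in the same columns. All 16 neg spots lay above the highest blank in each column but BX3mir-124, where 14 did. The highest neg spots read 51897 under BX3mir-124, 57830 under BX3_NC, 58147 under Panc1_mir-124 and 56592 under Panc1_NC. Under BX3_NC the highest neg spot lay above the mean readings of Lipocalin-2 (57788) and Progranulin (51489). Under BX3mir-124 it lay below both Lipocalin-2 spots. A reading as bright as these proteins was thus also seen at a spot named neg, and the cause was not tested. The lowest neg spots, 36710 under BX3_NC and 35068 under Panc1_NC, lie above the lowest spots of these columns, 33644 and 33619, which set the 0 of the relative expression.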

How the results depend on the processing

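Lipocalin-2 and Progranulin were higher on the siJAG1-labelled array under every alternative run, and the call of Progranulin at 1.5-fold was lost only without background subtraction. The 2 proteins were chosen on this contrast, and every run reuses the same 2 arrays. The kept direction is therefore no independent support, and the runs show only how the size depends on the processing. The log2 ratio of Lipocalin-2, 2.27 as reported, was 0.72 without background subtraction, 3.04 with array medians set equal, 2.85 with totals set equal, 2.29 after quantile normalization, 2.35 without division by the positive controls, 2.30 with scaling to bright antibodies, 3.27 with a floor of 0.1 and 3.96 with none. That of Progranulin, 1.83 as reported, was 0.55, 2.60, 2.41 and 1.96 under the first 4 of these, 2.83 with a floor of 0.1 and 3.41 with none. Taking the lower spot on the brighter and the higher on the dimmer array gave 2.26 and 1.77, and the reverse 2.28 and 1.89. The number of antibodies higher on the siJAG1-labelled array, 7 as reported, was 1 without background subtraction, 20 with equal medians, 13 with equal totals, 11 after quantile normalization, 11 with a floor of 0.1, 48 with none and 3 at a limit of 2-fold. The number lower, 15 as reported, was 2 without background subtraction, 8 with equal medians, 27 with a floor of 0.1 and 296 with none. The local background was added after seeing the data. Beyond what a setting does by construction, the cause was not tested. No paired analysis was possible because each label has 1 array, and for the same reason no array could be left out.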
